A study of Homo sapiens with 33 samples.

Results

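The comparison described here set THP-1 cells exposed to all-trans retinoic acid (RA) for 16 h against THP-1 cells that received vehicle and were harvested at the same time. Its members were chosen by sample title and comprised 8 of the 33 arrays of the series: 3 arrays of cells given 20 nM RA at the start and harvested after 16 h, and 5 arrays of cells given 0.1% ethanol and harvested after 16 h. THP-1 is an established human monocytic leukaemia line, and no array of this comparison came from cells given tumor necrosis factor, which was used in other arms of the study. Total RNA was hybridised to Affymetrix HG-U133 Plus 2 arrays, and per the series' design text each array stood for an independent well of cultured cells, so the spread reported is that between wells of 1 line. The titles of the vehicle arrays name a time of 0 h, whereas their treatment notes give ethanol for 16 h, and the notes were followed here. The comparison asks which transcripts had risen or fallen by 16 h of a low dose of RA.

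RA enters cells, is carried by cellular binding proteins and reaches the nucleus, where it binds the RA receptors. These receptors work as pairs with the retinoid X receptors on direct repeats of a short hexamer, and ligand exchanges bound corepressors for coactivators. Cells also limit the signal, because RA induces enzymes that break RA down or that turn its precursor back into retinol. In myeloid leukaemia cells RA is known for driving differentiation, which is the basis of its use in acute promyelocytic leukaemia, and for raising surface proteins such as CD38 and CD11b.

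Levels are given as multiples of the median signal of the same array ("array medians"), and fold changes as log2 differences of the deposited values, with the standard error (SE) from a limma fit over the 17 arrays of the RA time course. A gene passed the test at a Benjamini-Hochberg adjusted p under 0.05 over all 12503 genes tested. The arrays of the 2 groups correlated at 0.919 to 0.962 within vehicle, at 0.927 to 0.932 within RA and at 0.906 to 0.928 between groups. Vehicle replicate 5 stood apart on the second principal component of the 8 arrays, at -68.5 against -3.4 to 33.8 for the others. On the first component (27% of the variance) this array lay at 18.8. That is nearer the RA arrays, at 23.4 to 48.3, than the other vehicle arrays, at -42.3 to -23.7. Refits with 1 array left out in turn were made for every call, and those that ended a call or moved a value by over 1.5 times are given below. None of 9 measures of array or RNA quality and of other cell types passed an exact two-sided permutation test between groups. The smallest p of this test was 0.1071 (adjusted p 0.5892) and the smallest attainable p, before adjustment, 0.0179. After adjustment over the 9, a single measure that separated the groups fully could not pass alone. The test therefore cannot show that the groups were alike in quality. The log2 ratio of 3′ to 5′ ACTB signal, a measure of RNA integrity, was 0.943, 0.397 and 0.98 on the RA arrays and 0.19, 0.271, 0.659, 0.342 and 0.706 on the vehicle arrays. Of the monocytic markers, FCER1G (Fc receptor gamma chain), LYZ (lysozyme), CD4 and SPI1 (the transcription factor PU.1) were bright on both groups, while CD14 lay at only 1.8 ± 0.457 array medians (SD, n = 5) in vehicle and 1.69 ± 0.776 (SD, n = 3) in RA and did not pass (adjusted p = 0.844, limma). Of the other cell types' markers on the array, 2 of 8 for lymphocytes, 3 of 7 for erythroid cells and megakaryocytes, 3 of 9 for epithelium and fibroblasts and 1 of 6 for neutrophil secondary granules were bright enough to test. None passed by limma, and 1 of these, the granule peptide CAMP (log2 -1.86), had an unadjusted p under 0.05. In RNA from whole wells, fewer cells in a state and less RNA per cell cannot be told apart. The summed lymphocyte marker level was 10.9 to 14.5 array medians in vehicle and 10.8 to 17.4 in RA.

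By 16 h, 280 genes were higher and 379 lower in RA than in vehicle, which is 5.27% of the genes tested (2.24% higher and 3.03% lower). These shares over all genes are the background for the list counts below. The lists were chosen with earlier results of these data known, so their counts beside these shares describe and do not test. The rises were larger: their median log2 fold change was 1.27 and 184 of them were at least 2-fold, against a median of -0.90 and 150 for the falls. All 3 RA arrays lay above all 5 vehicle arrays in 272 of the 280 rises and below them in 302 of the 379 falls. Over all tested genes the groups did not overlap in 1354, or 10.8%. The median of all tested genes was -0.17 on the deposited scale, because the deposited values were centred on each array's median and those medians differ. On the signal scale recovered from the values, that median was -0.03 and the counts became 718 higher and 714 lower (5.74% and 5.71%), among which were all 280 of the rises and 362 of the 379 falls. The number of falls also hung on single arrays: without vehicle replicate 5 it was 1458 (11.7%, with 341 rises or 2.73%), without RA replicate 1 it was 168, without RA replicate 2 it was 186, and without vehicle replicates 2 and 4 it was 181 and 190. Rises numbered 177 without RA replicate 3. Called with each of the 8 arrays left out in turn were 161 rises and 72 falls.

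**Figure D1:**
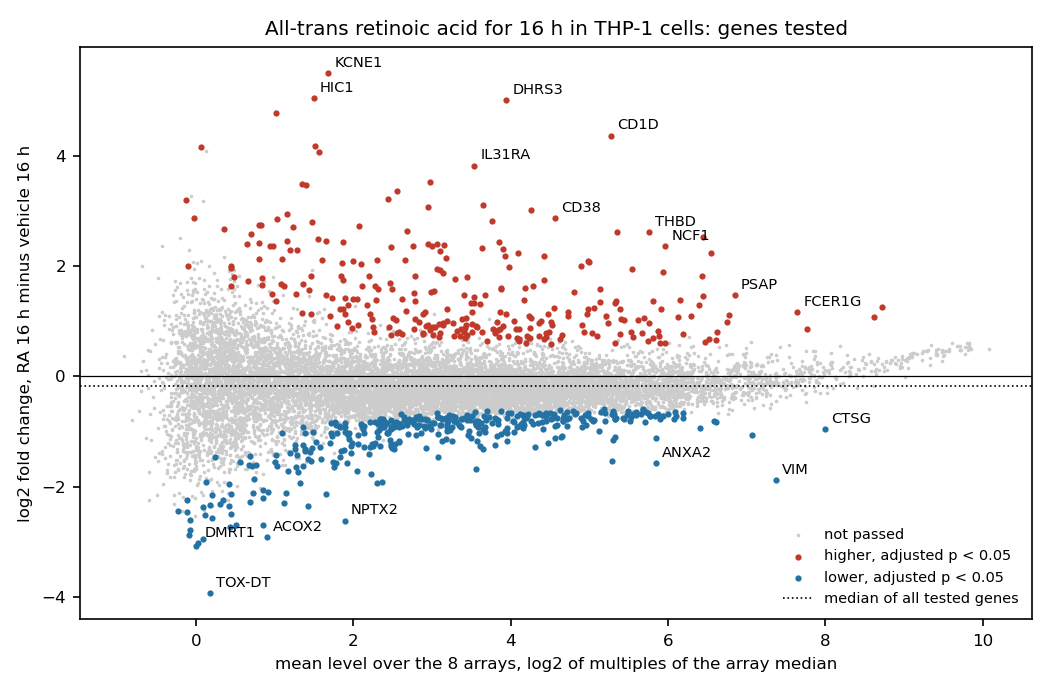
Log2 fold change of each tested gene (vertical axis) against its mean level over the 8 arrays (horizontal axis, log2 of multiples of the array median). Red points are the 280 genes higher and blue points the 379 genes lower in RA at 16 h (1 Y-linked gene not shown), grey points did not pass, and the dotted line marks the median of all tested genes at -0.17; the steepest falls lie at the dim end, the steepest rises also at middle and high levels.

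The largest rises began with genes that were near the bottom of the array in vehicle. KCNE1, a regulatory subunit of potassium channels, stood at 0.123, 0.96, 0.084, 0.17 and 0.101 array medians in vehicle and at 7.4, 6.71 and 10.1 in RA, a log2 difference of 5.50 (SE 0.89, adjusted p = 0.000111, limma). HIC1, a transcriptional repressor, was at 0.867, 0.403, 0.39, 0.075 and 0.039 in vehicle and 6.49, 6.23 and 8.04 in RA (5.04, SE 0.73, adjusted p = 1.74e-05, limma). Without vehicle replicate 2 the difference of KCNE1 was 6.11, and without vehicle replicate 5 that of HIC1 was 4.43. Every vehicle array lay below the array median for both genes and every RA array far above it, so the size of these differences depends on dim vehicle values and only the log2 difference is given. A second bright probe set of KCNE1 gave 1.92, in the same direction. NGFR (the p75 neurotrophin receptor), SYT2 (synaptotagmin 2, a calcium sensor of vesicle release) and MLXIPL (the glucose-responsive factor ChREBP) were likewise dim in vehicle and differed by 4.77, 4.18 and 3.49, with NGFR at 5.43 without vehicle replicate 4. Of the 17 tested nerve and channel genes 5 were higher (KCNE1, NGFR and SYT2, with the signalling regulator RGS16 at 2.37 and the semaphorin SEMA6B at 1.63) and 3 lower (NPTX2, RGS2 and the potassium channel KCNN4). Over all tested genes 2.24% were higher and 3.03% lower. This list had been written with earlier results of these data known, so its counts beside these shares are a description only. SPATA9 (4.16) and CYS1, which encodes the cilium protein cystin (3.20), were the dimmest of the 15 largest rises in RA, at 2.42 ± 0.858 and 1.95 ± 0.47 array medians (SD, n = 3), and their calls were lost without single arrays.

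Others of the 15 largest rises were bright in RA. CD1D, which presents lipids to natural killer T cells, was at 4.74, 6.95, 4.54, 4.58 and 3.03 array medians on the vehicle arrays and at 86.9, 92.4 and 105 on the RA arrays. This was a 20.5-fold rise with groups far apart (log2 4.36, SE 0.21, adjusted p = 2.43e-15, limma), the smallest adjusted p of all genes tested. IL31RA, a cytokine receptor chain of the gp130 type, rose 14.1-fold from 1.23, 2.21, 2.02, 2.39 and 2.17 to 24.1, 28.7 and 30.2 (adjusted p = 3.07e-13, limma). Its other bright probe set gave a smaller log2 difference, 2.25 against 3.82. PLEKHO1, a pleckstrin homology domain protein, rose 11.4-fold (log2 3.52, SE 0.35), and CYP27A1, the mitochondrial sterol 27-hydroxylase, 10.2-fold (log2 3.35, SE 0.57), a difference that was 2.71 on the log2 scale without vehicle replicate 5. BATF2, a basic leucine zipper factor of myeloid cells, was at 0.598, 1.44, 1.88, 1.28 and 1.74 in vehicle and 9.81, 11.6 and 14.9 in RA, a 9.22-fold rise (log2 3.21, SE 0.29, adjusted p = 2.3e-09, limma). No RA array of these genes came near a vehicle array.

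Because RA receptors bind direct repeats, the RefSeq promoter windows (GRCh38.p14, 250 bases before to 50 after the start site) were searched on both strands for pairs of the core hexamer, which could read AGGTCA or with 1 base changed AGTTCA or GGGTCA or with both changed GGTTCA, read in the same direction and spaced by 1, 2 or 5 bases. The first window listed for a gene held such a repeat in 70 of 27305 genes (0.256%), in 23 of 10157 tested genes (0.226%), in 1 of 215 rises (0.465%) and in 0 of 310 falls. A single hexamer was found in 38.7%, 32.4%, 33% and 29.0% of these. The repeat among the rises was that of BATF2, spaced by 5 bases and lying 29 to 13 bases before the start site. Its window is printed to show the repeat, beside that of CYP27A1, another of the 15 largest rises, whose 2 hexamers lie far apart on opposite strands. Both windows were chosen after the values were seen and are written on the gene's strand, with the hexamers in capitals. They lie at chr11:64990228-64990527, minus strand, and chr2:218781897-218782196, plus strand.
BATF2: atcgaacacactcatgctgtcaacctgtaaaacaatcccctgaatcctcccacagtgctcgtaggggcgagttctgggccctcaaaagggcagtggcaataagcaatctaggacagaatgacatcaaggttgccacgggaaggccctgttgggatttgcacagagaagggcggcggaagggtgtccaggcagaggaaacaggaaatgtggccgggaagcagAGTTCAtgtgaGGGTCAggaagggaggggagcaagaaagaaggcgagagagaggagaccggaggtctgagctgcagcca
CYP27A1: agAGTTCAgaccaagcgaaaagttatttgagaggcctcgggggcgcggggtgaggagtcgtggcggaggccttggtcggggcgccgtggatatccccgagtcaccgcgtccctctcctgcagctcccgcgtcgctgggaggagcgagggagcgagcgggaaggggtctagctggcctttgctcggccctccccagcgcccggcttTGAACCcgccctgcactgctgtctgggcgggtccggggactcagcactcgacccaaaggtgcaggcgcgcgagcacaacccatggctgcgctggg
In the BATF2 window the repeat reads AGTTCAtgtgaGGGTCA. In the CYP27A1 window the first hexamer reads forward and the second, TGAACC as printed, is GGTTCA on the other strand. Windows were listed for 10 of the 15 largest rises, and 8 of these held at least 1 hexamer in some window. This count takes any window of a gene, whereas the shares above take only the first window listed. It therefore cannot be compared with them. These matches describe the letters in the windows and no binding was measured.

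RA target genes known from myeloid cells moved together at 16 h. Of 23 tested members of the list, 16 were higher and none lower, with a median log2 fold change of 1.51 against -0.17 over all tested genes, and the list had been written with earlier results of these data known. DHRS3, the enzyme that returns retinaldehyde to retinol, was at 0.576, 2.04, 0.275, 2.26 and 3.17 array medians in vehicle and 41.4, 33.2 and 39.7 in RA, a 32.1-fold rise (log2 5.00, SE 0.48, adjusted p = 9.8e-09, limma). The vehicle arrays differed among themselves by over 1 array median here, yet all lay far below the RA arrays. THBD, the anticoagulant receptor thrombomodulin, rose 6.13-fold, from 16.3, 26.2, 14.1, 20.5 and 16.8 to 117, 100.3 and 121 (adjusted p = 3.31e-11, limma). CD38, an ectoenzyme that consumes NAD and a classical marker of RA-treated myeloid cells, was at 8.03, 10.3, 4.7, 8.87 and 4.66 in vehicle and 44.1, 50.4 and 57.6 in RA, a 7.27-fold rise (adjusted p = 3.59e-10, limma). For both genes the lowest RA array lay far above the highest vehicle array.

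TGM2 (tissue transglutaminase, a cross-linking enzyme) was below the array median on 4 of 5 vehicle arrays, at 0.614, 0.161, 0.15, 1.38 and 0.573, and at 7.81, 6.92 and 6.11 in RA (log2 4.07, SE 0.59, adjusted p = 2.12e-05, limma). Its 2 other bright probe sets gave smaller differences, 2.12 and 2.31. FLT3, a growth factor receptor of early myeloid cells, rose 3.64-fold (log2 1.86, SE 0.22), and PLAAT4, a phospholipid acyltransferase also known as retinoic acid receptor responder 3, 3.53-fold (log2 1.82, SE 0.28). NRIP1, a corepressor of nuclear receptors, rose 1.83-fold (adjusted p = 0.0173, limma). Some retinoid genes were too dim to test, namely the RA hydroxylases CYP26A1 and CYP26B1 and the receptor RARB. CYP26A1 was at 0.269, 0.665, 0.362, 0.083 and 0.376 in vehicle and 2.66, 0.268 and 1.22 in RA, with overlapping arrays. CYP26B1 was under the array median on all 8 arrays, at 0.139, 0.04, 0.084, 0.072 and 0.14 in vehicle and 0.854, 0.203 and 0.764 in RA, with every RA array above every vehicle array, and it stood at 2.48 and 3.23 on the 2 arrays of 6 h RA. RARB overlapped throughout, at 0.77 ± 0.521 (SD, n = 5) and 0.498 ± 0.566 (SD, n = 3). RARA, which encodes the main RA receptor of myeloid cells, was at 7.92 ± 1.37 (SD, n = 5) and 6.39 ± 0.993 (SD, n = 3) and did not pass (adjusted p = 0.425, limma), and its 3 other bright probe sets differed by -0.54 to 0.94, so they disagree in sign. Of 14 retinoid receptors and cofactors tested, 3 were higher: NRIP1 and the fatty acid receptors PPARG (3.51-fold, adjusted p = 0.000192, limma) and PPARD (1.66-fold, adjusted p = 0.0271, limma). Without RA replicate 2, PPARG alone of these passed.

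**Figure D2:**
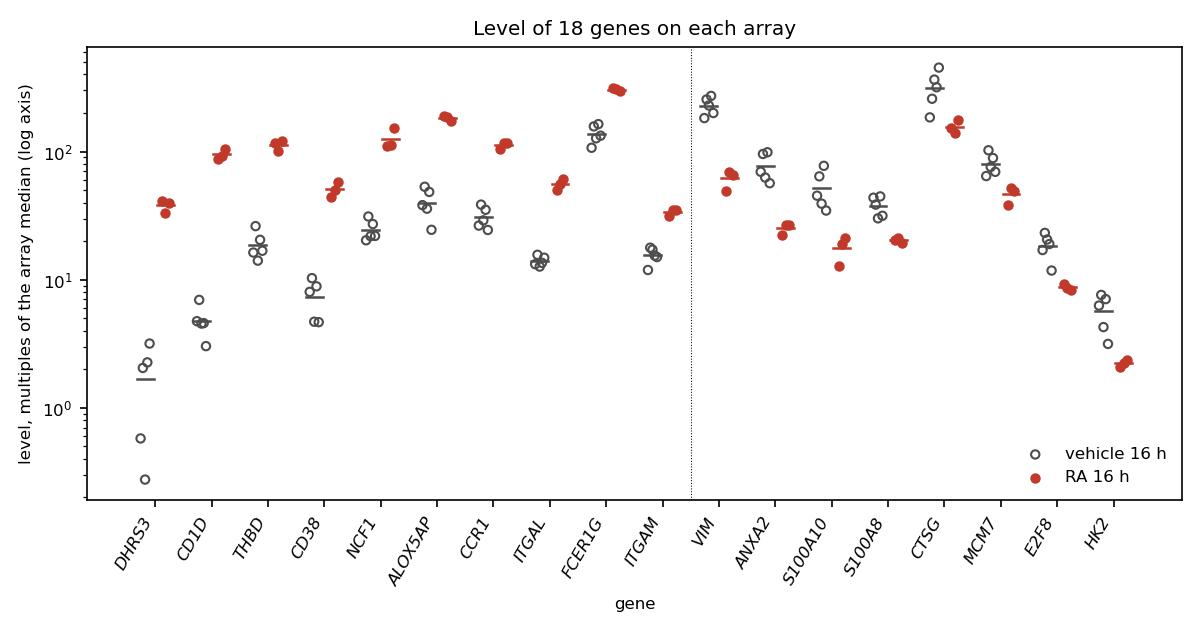
Level of 18 genes on each of the 8 arrays (vertical log axis, multiples of the array median), with open circles for the 5 vehicle arrays, filled circles for the 3 RA arrays and bars for the group means. The 10 genes left of the dotted line rose and the 8 right of it fell, and in none of the 18 do the 2 groups overlap.

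Some genes for surface and signalling proteins of monocytes and macrophages rose. Of 21 tested markers of these cells 7 rose and none fell, with 5 rises in place of 7 without RA replicate 2 or RA replicate 3. The 28 tested Fc, CD300 and immunoreceptor (ITAM) genes held 7 rises and 1 fall, with 4 rises in place of 7 without RA replicate 3. Shares over all tested genes were 2.24% higher and 3.03% lower. Among the markers that did not pass were CD14, LYZ, SPI1 and CD4. ITGAM, the alpha chain of the integrin CD11b, went from 11.9, 17.8, 17.1, 15.4 and 15 to 31.2, 34.8 and 35, a 2.2-fold rise (adjusted p = 0.000103, limma). CCR1, a receptor for inflammatory chemokines, rose 3.72-fold, from 26.4, 38.5, 29, 35.1 and 24.4 to 105, 117 and 117 (adjusted p = 1.39e-08, limma). CCR2, which draws monocytes out of the marrow, rose 2.16-fold (adjusted p = 6.86e-05, limma), and CSF1R, the receptor for macrophage colony-stimulating factor, 1.66-fold (adjusted p = 0.0249, limma). IL10RA, the interleukin 10 receptor chain, rose 2.5-fold (adjusted p = 7.01e-05, limma), and with CSF1R, FLT3 and NGFR made up the 4 rises among 21 tested growth factor and cytokine receptors, of which none fell. In each of ITGAM, CCR1, CCR2 and CSF1R all RA arrays exceeded all vehicle arrays. FCER1G, the shared signalling chain of Fc receptors and among the brightest genes that rose, went from 107, 157, 127, 164 and 132.97 to 311, 305 and 295, a 2.23-fold rise.

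The inhibitory receptor CD300A rose 4.69-fold (log2 2.23, SE 0.20) and the activating receptor CD300LB 5.61-fold (log2 2.49, SE 0.34). CD300C rose 2.09-fold with overlapping arrays, because vehicle replicate 2 stood at 7.69 against 5.71 on RA replicate 2. The 1 fall of the list was CLEC12A, an inhibitory lectin of myeloid cells, at 2.33, 3.59, 3.27, 3.11 and 2.71 in vehicle and 0.452, 1.14 and 1.42 in RA, a 3.29-fold fall (adjusted p = 0.00381, limma). The Src-family kinases FGR and LYN rose 5.43-fold and 1.72-fold. NCF1, the p47 subunit of the phagocyte NADPH oxidase, rose 5.16-fold, from 20.3, 31.1, 21.8, 27.2 and 21.9 to 111, 113 and 153 (adjusted p = 7.31e-11, limma). Its probe set can also pick up the near-identical NCF1B and NCF1C pseudogenes. NCF1 and FGR were the only 2 of 13 tested oxidase and killing genes to pass, both higher, where 2.24% of all tested genes were higher.

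Adhesion genes were mostly higher where they passed. Of 26 tested integrin and adhesion genes 5 were higher and 1 lower, where 2.24% of all tested genes were higher and 3.03% lower. ITGAL (CD11a) rose 3.98-fold from 13.2, 15.6, 12.6, 13.5 and 14.8 to 50.04, 55.3 and 61.6 (adjusted p = 2.8e-09, limma). ITGA6, a laminin receptor chain, rose 5.3-fold (log2 2.40, SE 0.26) and ITGB7, the partner of gut-homing integrins, 3.1-fold (log2 1.63, SE 0.26). ITGAX (CD11c) rose 2.19-fold. The fall was CD44, the hyaluronan receptor, which was 1.6-fold lower (adjusted p = 0.0257, limma). Without vehicle replicate 5, 4 members of the list were lower, and 0 without RA replicates 1 or 2 or vehicle replicates 2, 3 or 4 each.

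Of 15 tested genes for making and sensing lipid mediators 4 rose and none fell, with a list median of 0.16, and the other 11 did not pass. Shares over all tested genes were 2.24% higher and 3.03% lower. ALOX5AP, the activating protein that 5-lipoxygenase needs to make leukotrienes, was at 38.2, 53.1, 35.8, 48.4 and 24.5 in vehicle and 189, 187 and 172 in RA, a 4.73-fold rise (adjusted p = 2.35e-09, limma). LTB4R, the leukotriene B4 receptor, rose 2.85-fold (adjusted p = 1.4e-05, limma), and PTGS1, cyclooxygenase 1, 2.25-fold (adjusted p = 0.000136, limma). PTGES, the inducible prostaglandin E synthase, was at 0.68, 1.04, 0.634, 1.25 and 0.07 in vehicle and 6, 6.4 and 5.05 in RA (log2 3.47, SE 0.75, adjusted p = 0.00365, limma), with vehicle replicate 5 far below the other 4. Without that array the difference of PTGES was 2.74, and its other bright probe set gave 0.95.

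Complement genes rose in 6 of 17 tested and fell in none, with a list median of 0.67 against -0.17 over all genes. SERPING1, the C1 inhibitor, was at 0.728, 0.512, 0.119, 1.11 and 0.874 in vehicle and 2.74, 4.12 and 2.83 in RA (log2 2.58, SE 0.65, adjusted p = 0.0144, limma). CFP (properdin, which stabilises the alternative convertase) rose 2.33-fold and C1S, a protease of the classical pathway, 2.83-fold, with no overlap between groups in either. CD93, a receptor once linked to C1q, rose 1.71-fold. ITGAM and ITGAX, described above as integrins, are also complement receptor chains and complete the 6. Without RA replicate 2 or RA replicate 3 the rises numbered 4.

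Lipid handling and lysosomal genes were mostly higher where they passed. Of 26 tested lipid genes 8 rose and 1 fell, and of 33 tested lysosomal genes 7 rose and none fell; on the recovered signal scale the lysosomal rises were 14. Without RA replicate 3 each list had 2 rises. Shares over all tested genes were 2.24% higher and 3.03% lower. PSAP, the precursor of the saposins that help digest sphingolipids, went from 61.2, 100.2, 69.4, 80.1 and 41.9 to 153, 196 and 221, a 2.77-fold rise (adjusted p = 3.72e-05, limma). Cathepsins D and B (CTSD, CTSB) rose 1.97-fold and 1.67-fold, and NPC2, which carries cholesterol out of the lysosome, 1.6-fold (adjusted p = 0.0196, limma). FUCA1, a lysosomal fucosidase, rose 1.91-fold on its brightest probe set (log2 0.93), whereas the mean over its probe sets was -0.56. The scavenger receptor CD36 rose 2.08-fold, SOAT1, which esterifies cholesterol, 1.95-fold, and NR1H3, the liver X receptor alpha, 1.7-fold (adjusted p = 0.0477, limma). ABCG1, a cholesterol exporter, was the fall: 1.2, 1.77, 1.49, 1.89 and 1.22 in vehicle and 0.506, 0.305 and 1.04 in RA, a log2 difference of -1.45 that passed narrowly (adjusted p = 0.0457, limma), while its other bright probe set gave 1.01, so its direction is unsettled. None of 19 tested genes of sterol and fatty acid synthesis passed by limma, nor had any an unadjusted p under 0.05; on the recovered signal scale 1 was higher.

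Inflammatory genes gave 5 rises and no fall, where 2.24% of all genes rose and 3.03% fell. Of 22 tested NF-kB targets 2 were higher: BCL2A1, an anti-apoptotic BCL2 relative (5.37-fold, adjusted p = 2.26e-05, limma), and IRF1, an interferon regulatory factor (2.79-fold, adjusted p = 2.88e-06, limma). NFKBIA, the inhibitor that NF-kB induces, was at 16.5, 24, 15.1, 20.7 and 19.1 in vehicle and 9.96, 13.4 and 15.1 in RA, so that the lowest vehicle array and the highest RA array met, and did not pass (log2 -0.58, adjusted p = 0.12, limma); its other bright probe set gave 0.05. TNF and IL1B overlapped between groups and did not pass (adjusted p = 0.458 and 0.278, limma). Of 16 tested cytokines and chemokines 3 rose and none fell: CXCL8, which attracts neutrophils, from 2.99, 9.06, 3.9, 5.05 and 3.16 to 10.9, 11 and 17.3 (2.89-fold, adjusted p = 0.000701, limma), CCL2 2.79-fold and CCL5 1.77-fold. Without vehicle replicate 5 the cytokine rises numbered 5, and without RA replicate 3 they numbered 2. In CXCL8 and CCL2 vehicle replicate 2 lay well above the other vehicle arrays and just below the lowest RA array.

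Of 34 interferon-response genes 2 were higher and 1 lower, where 2.24% of all tested genes were higher and 3.03% lower. Counts this small are not read as a result about the list, and without RA replicate 2 none of the 34 passed in either direction. Of 17 pattern receptors TLR5, the flagellin receptor, was higher by 1.65 on the log2 scale (adjusted p = 0.032, limma) from a vehicle level near the array median but passed in only 3 of the 8 fits that leave out 1 array, and NOD1 fell 2.4-fold (adjusted p = 0.038, limma), a call that rests on RA replicate 1 at 0.72 (log2 -0.41 without it, not passing) next to 4.16 and 4.46 on the other RA arrays, with vehicle at 6.53, 4.87, 5.69, 4.87 and 6.87. OAS1, a sensor enzyme for double-stranded RNA, and IFIT3 rose 2.46-fold and 2.63-fold. OAS1 passed in 3 of the 8 leave-out fits and had an adjusted p of 0.0716 (limma) when only the 8 arrays were fitted, and the other bright probe set of IFIT3 gave 0.34. USP18, which dampens interferon receptor signalling, was at 1.93, 2.01, 1.46, 1.16 and 1.98 in vehicle and 0.306, 0.142 and 0.865 in RA, a log2 difference of -2.32 (adjusted p = 0.00966, limma) that was -1.70 and no longer passed without RA replicate 2, and was -3.01 without RA replicate 3. Class I antigen presentation shows how much the scale matters: 1 of 20 tested genes (TAPBPL, a peptide editor, 2.13-fold) passed on the deposited scale and 12 on the recovered signal scale, all higher, and the list median was 0.41 on the first scale. On that scale 0 passed without RA replicate 1 or 3 and 3 without vehicle replicate 5. The summed level of the 20 genes was 1250.04 to 1936.6 array medians in vehicle and 2019.74 to 2509.6 in RA, without overlap.

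**Figure D3:**
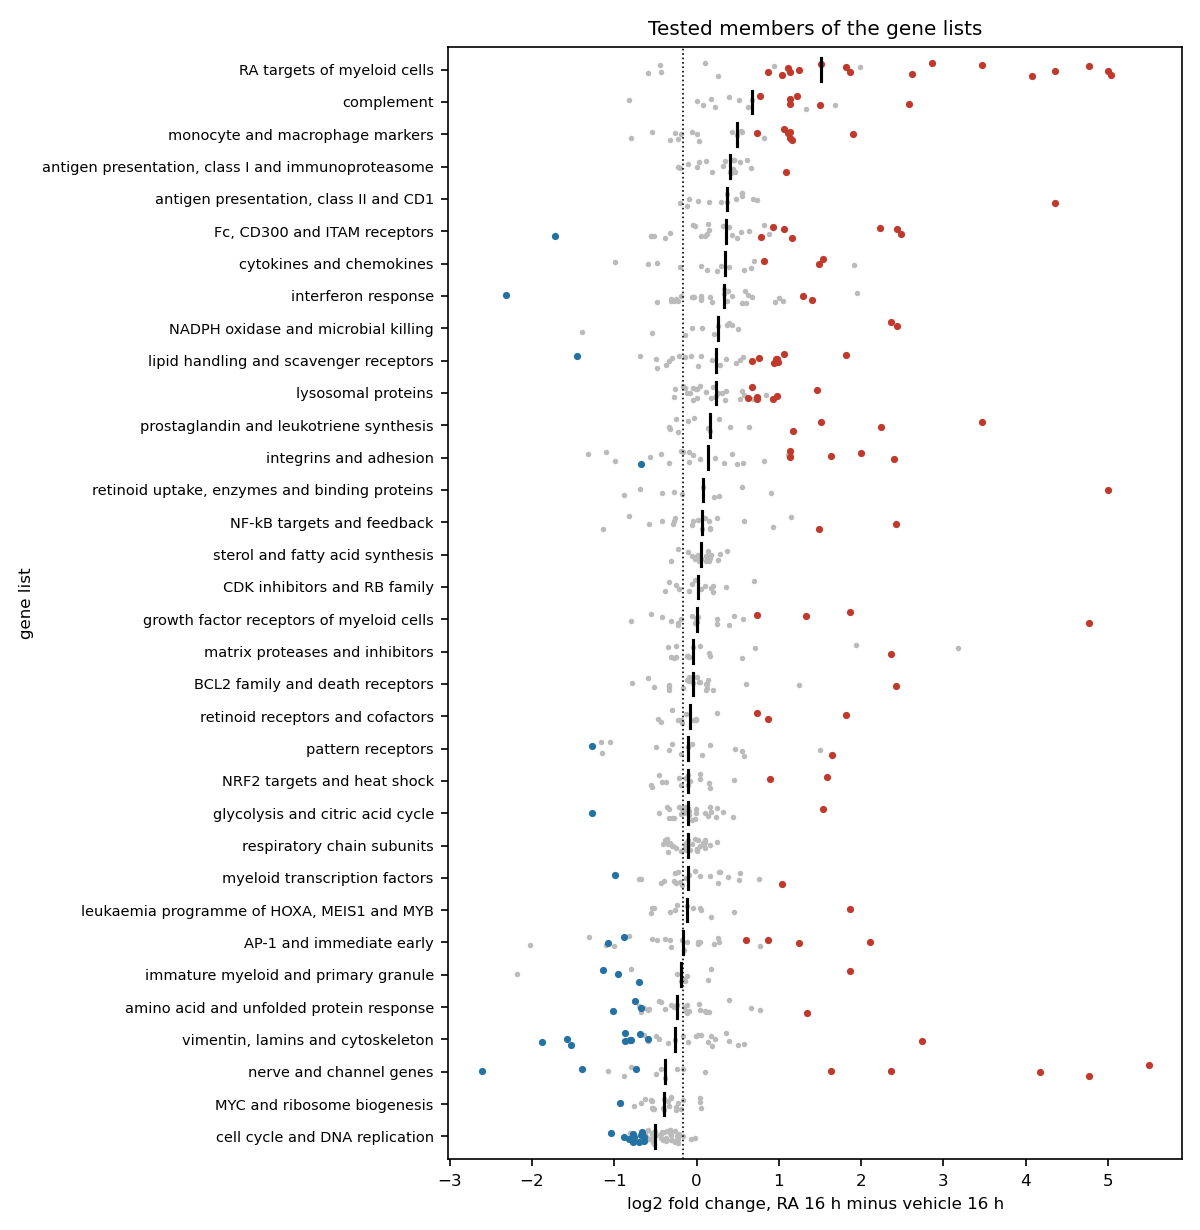
Log2 fold change at 16 h (horizontal axis) of each tested member of 34 gene lists (vertical axis, ordered by list median), where red and blue points passed higher and lower, grey points did not pass, black bars are list medians and the dotted line is the median of all tested genes at -0.17. RA targets lie farthest to the right with a median of 1.51, and cell cycle genes farthest to the left with a median of -0.51.

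Several bright cytoskeletal and membrane scaffold genes fell. Of 29 tested genes of that list 9 were lower and 1, LSP1, was higher, while the list median was -0.26 against -0.17 over all genes and 14 of the 29 lay above that overall median. Without RA replicate 1 the falls numbered 4 and LSP1 did not pass (log2 2.48). VIM, the intermediate filament protein vimentin, was at 183, 255, 229, 272 and 199.9 array medians in vehicle and 49.5, 69.5 and 66.2 in RA, a 3.69-fold fall (log2 -1.88, SE 0.19, adjusted p = 1.53e-08, limma). ANXA2, a calcium-dependent membrane binding protein, fell 2.98-fold from 69.6, 95.7, 62.7, 98.8 and 56.6 to 22.5, 26.6 and 26.5, and S100A10, its partner in the annexin A2 tetramer, fell 2.89-fold from 45.2, 64, 39.2, 77.4 and 34.6 to 12.8, 19 and 21. The adjusted p was 6.96e-07 for ANXA2 and 2.84e-05 for S100A10 (limma), and in all 3 genes every RA array was below every vehicle array. The processed pseudogene ANXA2P2, which shares sequence with ANXA2, was 2.01-fold lower, and the 2 probe sets may not separate the transcripts. ANXA1 fell 1.74-fold, S100A8, a calcium-binding protein abundant in neutrophils and monocytes, 1.83-fold, the nuclear lamins LMNB1 and LMNB2 1.83-fold and 1.6-fold, and TUBB6, a beta tubulin, 1.75-fold. LSP1, an actin-binding protein of leukocytes, was dim in vehicle at 1.01, 0.947, 0.429, 0.211 and 0.441 and was at 4.96, 2.49 and 3.41 in RA (log2 2.74, SE 0.63, adjusted p = 0.00757, limma).

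Cell cycle and DNA replication genes gave small falls. Of 57 tested genes 12 fell and none rose, the list median was -0.51 against -0.17 for all genes, and only 3 of the 57 lay above that overall median. On the recovered signal scale 23 fell, and without vehicle replicate 5, 27 fell, none rising in either. Without RA replicate 1 only 1 of the 57 fell, so this count hangs on single arrays. E2F8, a repressor of the E2F family, was at 17, 23.2, 20.6, 19 and 11.8 in vehicle and 9.24, 8.59 and 8.24 in RA, a 2.06-fold fall (adjusted p = 0.00114, limma). MCM7, a subunit of the replicative helicase, fell 1.71-fold from 64.4, 102, 75.8, 89 and 69.5 to 38.1, 52.3 and 49.5 (adjusted p = 0.0135, limma). The groups did not overlap for either gene, while for MCM4 (1.76-fold) and cyclin E2 (CCNE2, 1.7-fold) the lowest vehicle array, replicate 5, reached into the RA range. MCM2, MCM3, the helicase cofactor GINS2, POLE2 of DNA polymerase epsilon, cyclin A2 (CCNA2), the proliferation marker MKI67, E2F2 and MYBL2 fell between 1.56-fold and 1.85-fold. Of 14 tested CDK inhibitors and RB family genes none passed by limma and 1 had an unadjusted p under 0.05. Of 25 tested MYC and ribosome biogenesis genes 1 fell, ODC1, the first enzyme of polyamine synthesis, with overlapping arrays at 112, 143, 75.1, 145 and 49.97 in vehicle and 46.1, 58.1 and 49.9 in RA (adjusted p = 0.0295, limma), and 7 fell without vehicle replicate 5. ODC1 passed in 2 of the 8 leave-out fits, and 1 fall of 25 is near the 3.03% of all tested genes that fell.

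Granule and metabolic genes added single falls. CTSG, cathepsin G of the primary granule and one of the brightest genes that fell, was at 185, 258, 365, 318 and 452 in vehicle and 153, 139 and 176 in RA, a 1.94-fold fall (adjusted p = 0.00676, limma). SERPINB10 fell 2.21-fold and MS4A3, a marker of granulocyte and monocyte progenitors, 1.62-fold, so that 3 of 13 tested genes of the immature granule list were lower and 1 (FLT3) higher. MS4A3 passed in 2 of the 8 leave-out fits and had an adjusted p of 0.0668 (limma) when only the 8 arrays were fitted, and without RA replicate 2 the falls of the list numbered 1. ELANE, neutrophil elastase, was as bright as CTSG and did not pass, at 414 ± 107 (SD, n = 5) and 361 ± 79.2 (SD, n = 3, adjusted p = 0.705, limma). HK2, hexokinase 2 at the entry of glycolysis, fell 2.41-fold while FBP1, a gluconeogenic enzyme that opposes phosphofructokinase, rose 2.89-fold (adjusted p = 0.00405 and 2.46e-05, limma). They were the only 2 of 30 tested glycolysis and citric acid cycle genes to pass. That is near the share over all tested genes (2.24% higher and 3.03% lower) and is not read as a result about the list. PHGDH, ALDH1L2 and CBS, enzymes of serine, folate and cysteine metabolism, fell 1.69-fold, 2.02-fold and 1.6-fold with overlapping arrays, and DDIT4, an inhibitor of mTORC1 signalling, rose 2.53-fold (adjusted p = 0.000134, limma). Without vehicle replicate 5 the falls of that list of 29 numbered 9 in place of 3, and 0 without RA replicate 2 or vehicle replicates 1, 2 or 4 each. None of 33 tested respiratory chain subunits passed by limma on either scale, nor had any an unadjusted p under 0.05.

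Of 24 tested myeloid transcription factors 1 rose and 1 fell, and of 26 AP-1 and immediate early genes 4 rose and 2 fell. The first is near the share over all genes (2.24% higher and 3.03% lower). KLF4, a Krüppel-like factor of monocytes, fell 1.98-fold from 13.7, 17.8, 12.1, 13.8 and 10.6 to 6.19, 7.09 and 7.05 (adjusted p = 0.00287, limma). The AP-1 members FOSL1 and FOSL2 fell 2.11-fold and 1.85-fold (other bright probe sets of FOSL2 ranged from -0.90 to -0.06), whereas JUND and the small Maf protein MAFF rose 1.52-fold and 4.3-fold. DUSP6 and SPRY2, feedback inhibitors of the ERK pathway, rose 2.37-fold and 1.82-fold. BHLHE40 rose 2.05-fold on its brightest probe set, but its other bright probe set gave -0.69, so its direction is unsettled. AKR1C1 and AKR1C2, aldo-keto reductases of near-identical sequence that the array may not tell apart, rose 1.85-fold and 3-fold and were the 2 passing genes of 18 tested NRF2 and heat shock genes. MMP2, a gelatinase, rose 5.16-fold from 3.91, 5.26, 1.92, 3.31 and 2.12 to 16.1, 16.6 and 15.1 (adjusted p = 1.24e-07, limma), but its other bright probe set gave 0.07.

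The largest falls by log2 size were dim genes. Named here are 14 of the 15, as 1 Y-linked gene was left out. NPTX2, a secreted pentraxin of synapses, was the brightest of them, at 4.13, 4.73, 5.33, 5.44 and 6.82 in vehicle and 1.24, 0.314 and 1.6 in RA, a 6.11-fold fall (log2 -2.61, adjusted p = 1.32e-05, limma) that was -1.89 on the log2 scale without RA replicate 2. ACOX2, a peroxisomal oxidase of bile acid intermediates, was at 2.15, 4.19, 1.97, 3.84 and 1.42 and 0.157, 0.252 and 0.932 (log2 -2.91, SE 0.47, adjusted p = 0.000105, limma), and the phosphatase PTPN14 at 2.72, 3.02, 2.28, 2.72 and 2.08 and 0.346, 1.16 and 0.152 (log2 -2.69, SE 0.49, adjusted p = 0.00056, limma). All RA arrays lay below all vehicle arrays for the 3 genes, and most RA values were under 1 array median, where small signals make large log2 differences. Without RA replicate 3 ACOX2 differed by -3.65 and PTPN14 by -2.003, and PTPN14 by -3.47 without RA replicate 2. TOX-DT, a transcript divergent from TOX, differed by -3.92, ERVMER34-1, an endogenous retroviral envelope gene, by -3.08, and DMRT1, a sex-determination factor, by -3.02. The first was at -4.61 and the second at -3.67 without RA replicate 3. TSPAN2, SGMS2, TUBB2A, EML1, NUAK1, DLGAP1-AS3, ANKRD36 and LINC02806 completed the 14, at -2.86 to -2.35. Calls of these 8 were lost without single arrays, and passed in 2 (DLGAP1-AS3, LINC02806) to 7 (SGMS2, EML1, NUAK1) of the 8 leave-out fits. Without RA replicate 2 SGMS2 was at -1.85, EML1 at -1.55, ANKRD36 at -1.35, TSPAN2 at -4.10, TUBB2A at -3.55 and DLGAP1-AS3 at -3.29. Without RA replicate 3 NUAK1 was at -1.39, TSPAN2 at -2.25, ANKRD36 at -3.38 and DLGAP1-AS3 at -1.74, and without RA replicate 1 NUAK1 was at -3.17, TSPAN2 at -2.25 and TUBB2A at -1.61. LINC02806 turned to 0.13 when the mean of its probe sets was used. Of the 29 named rises and falls 19 passed with each of the 8 arrays left out in turn. None of the 5 with a further bright probe set had one of opposite sign, but in all 5 the differences there were smaller. They were 1.92 for KCNE1, 2.12 and 2.31 for TGM2, 2.25 for IL31RA, 0.95 for PTGES and -1.72 for PTPN14.

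Several further calls named above, most of them of small differences, also hung on single arrays. Lost without RA replicate 1 alone were CLEC12A (log2 -1.22), TUBB6 (-0.68) and MCM7 (-0.64). Lost without RA replicate 2 alone were CTSG (-0.88), CD36 (0.98), IFIT3 (1.31) and SERPING1 (2.39), and without RA replicate 3 alone ITGAX (0.88), CCL5 (0.65), CTSD (0.80), LYN (0.64) and SPATA9 (3.88). The genes NRIP1, AKR1C1, CD300C, FOSL1, TAPBPL, MYBL2, CTSB, NPC2, CSF1R and CYS1 passed in 6 of the 8 leave-out fits, each failing without RA arrays only. PPARD, MCM4, LMNB1 and SOAT1 passed in 5, and SEMA6B in 4. CD44, C1S, CCNE2, CCNA2, MKI67, E2F2, GINS2 and PHGDH passed in 3, ANXA1, RGS2, KCNN4, MCM2, POLE2, JUND, ALDH1L2, CBS and ABCG1 in 2, and MCM3, LMNB2 and NR1H3 in 1. The log2 values of these genes kept their sign in every leave-out fit and moved by less than 1.5 times, apart from RGS2 (-1.39, and -0.77 without RA replicate 3).

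Levels at earlier and later times of the same experiment place the 16 h values. The arrays at 2 h and 6 h of RA were compared with the same 5 vehicle arrays, so these values share their reference and only levels are set side by side. THBD already stood at 106 array medians at 2 h and 129 at 6 h (mean of 2 arrays each), next to 113 at 16 h. IRF1 was at 28.5, 31.3 and 21.3, and DDIT4 at 32.9, 42.9 and 18.4, and both had higher means at 2 h and 6 h than at 16 h. The median of all genes against vehicle also differed between the times, at 0.32, 0.38 and -0.17 on the log2 scale. Relative to it IRF1 was at 1.59, 1.62 and 1.65 and no longer fell from 6 h to 16 h, whereas DDIT4 was at 1.86, 2.14 and 1.51. On the same footing THBD was at 2.22, 2.43 and 2.79, so that it was highest at 16 h. DHRS3 was at 7.1, 32.6 and 38.1, and BCL2A1 at 1.5, 2.55 and 7.33, and both had their highest mean of the 3 times at 16 h. VIM was at 279 and 237 array medians at 2 h and 6 h, within or near its vehicle range, and at 61.7 at 16 h. ANXA2 (at 112, 97.6 and 25.2) and MCM7 (at 102, 121 and 46.6) also had a 16 h mean below both earlier means. Relative to the median of all genes, DHRS3, BCL2A1, VIM, ANXA2 and MCM7 likewise had their most extreme value of the 3 times at 16 h.

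At 40 h, 24 h after RA was added again, 2 RA arrays had their own 3 vehicle arrays. Relative to the median of all genes, the 280 rises of 16 h had a median log2 fold change of 1.44 at 16 h and 1.52 at 40 h. The 379 falls had one of -0.73 at 16 h and -0.47 at 40 h. Both sets were picked by their 16 h values, which tends to enlarge the 16 h medians. A change between the times therefore cannot be read from these medians. No gene passed the test of a difference between the RA effects at 40 h and at 16 h by limma: 1090 had an unadjusted p under 0.05, and the smallest adjusted p was 0.271. PSAP stood at 301 array medians in RA at 40 h against 75.8 in vehicle, and BCL2A1 at 13.1 against 1.15. VIM was low at 40 h too, at 55.5 against 216 (adjusted p = 5.93e-07, limma). MCM7 was at 63.2 against 70.6 (adjusted p = 0.892, limma) and E2F8 at 14 against 18.6 (adjusted p = 0.556, limma), neither passing at 40 h. Vehicle at 40 h and at 16 h differed in no gene by limma (407 at an unadjusted p under 0.05, smallest adjusted p 0.0737).

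**Figure D4:**
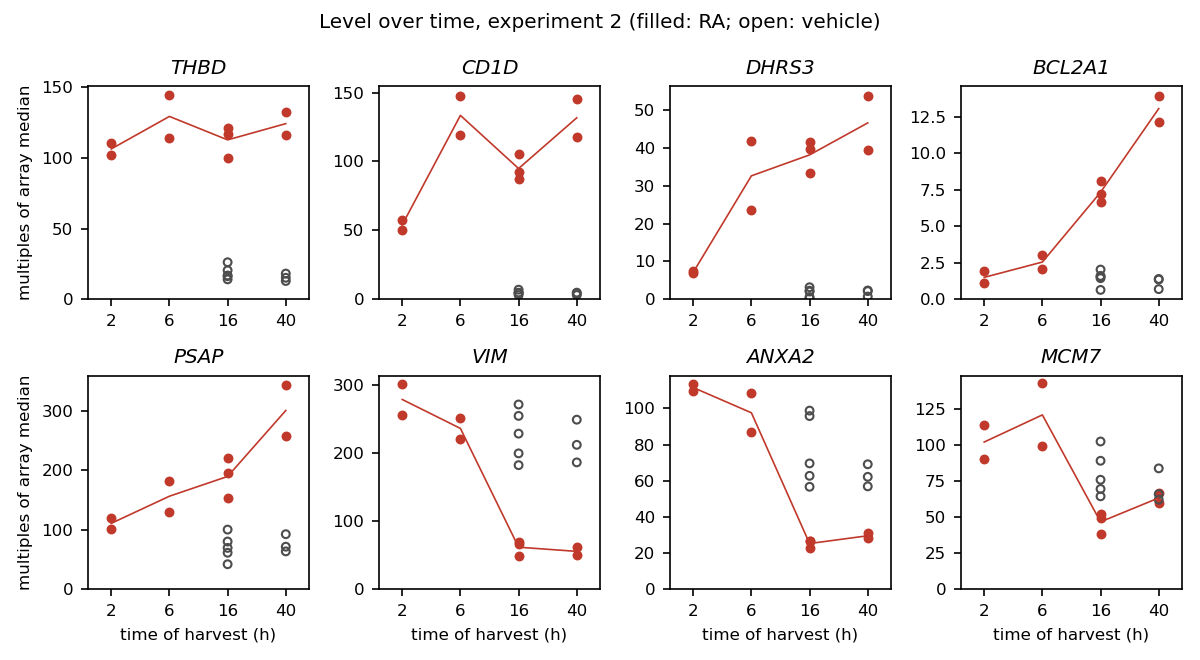
Level of 8 genes (vertical axis, multiples of the array median, starting at 0) at 2, 6, 16 and 40 h of harvest (horizontal axis, not to scale), with filled circles for RA arrays, a line through their means and open circles for vehicle arrays at 16 and 40 h. THBD is high from 2 h, BCL2A1 and PSAP reach their highest level at 40 h, and VIM and ANXA2 are low only at 16 and 40 h.

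A further check used arrays that share nothing with the 16 h comparison, namely 3 RA and 3 vehicle arrays harvested at 40 h whose record numbers form a separate run, where 2.06% of genes passed. Of the 273 rises tested there too, 257 (94.1%) lay on the same side of the median of all genes, and of 366 falls 260 (71.0%), against 58.3% of all genes tested on both. Passing there in the same direction were 105 of the rises and 30 of the falls, and none passed in the opposite direction. Genes named above that had the opposite sign there without passing included TSPAN2 (log2 2.41), IFIT3 (-0.957), OAS1 (-0.812) and DDIT4 (-0.722). DHRS3 was at 2.06 in vehicle and 28 in RA (adjusted p = 1.3e-10, limma), CD38 at 3.61 and 31.5 (adjusted p = 3.63e-10, limma), and THBD at 14.3 and 97.7 (adjusted p = 3.78e-10, limma). VIM was at 119 and 23.3 (adjusted p = 9.26e-10, limma) and S100A10 at 47.1 and 11.3 (adjusted p = 1.65e-07, limma), both lower again. CXCL8, CCL5 and MCM7 did not pass there (adjusted p = 0.959, 0.939 and 0.56, limma), and NFKBIA, which had not passed at 16 h, was lower (log2 -1.15, adjusted p = 0.00082). Time and array set both differ between the 2 comparisons and cannot be told apart. RA added again before the 40 h harvest, as given above, would be a further difference.

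**Figure D5:**
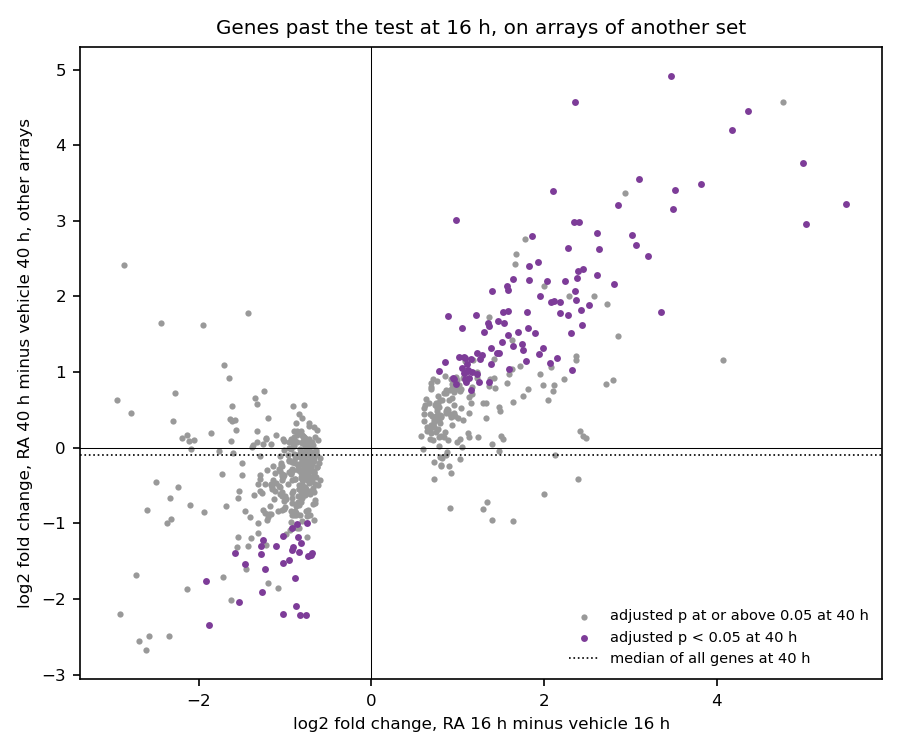
Log2 fold change at 40 h on the separate run of arrays (vertical axis) against that at 16 h (horizontal axis) for the genes that passed at 16 h, with purple points for those that also passed at 40 h and a dotted line at the median of all genes at 40 h. Of the rises 257 of 273 lie above that line, and of the falls 260 of 366 below it.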

How the data were processed

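Values were deposited by the authors on a log2 scale, as signal relative to the median of the same array, from GCOS per the submitters' processing notes. The GCOS version and settings are not given in the sources used here, and the centring was read from the values. Of 54675 probe sets, 41091 with a single gene symbol were kept, 41037 of which matched the reference gene table, and the brightest probe set stood for each of 19775 genes. Genes whose mean over the 17 arrays lay below the median probe set (0.891 array medians) were removed, leaving 12503. Models were fitted with limma 3.58.1 in R 4.3.3 (lmFit, eBayes with an intensity trend) to the deposited log2 values over 6 groups, with 11 residual degrees of freedom, and p-values were adjusted by Benjamini-Hochberg over all genes. The scripts were tested on simulated data.

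Levels printed are 2 to the power of the deposited value, and no fold is given where the dimmer group's mean lies below the array median. For arrays, their number limits the precision. GCOS signals were recovered from the values for a second scale, where 100% of signals under 8 units lay within 0.006 units of a multiple of 0.1. Alternatives are given in the closing section.

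Genes were named by rule: the 15 largest rises and 15 largest falls with groups that do not overlap, a fixed set of RA and inflammatory genes, and up to 4 passing members of each list by smallest adjusted p. Further list members and genes outside the lists were named after their values were seen. The members and lists were chosen with earlier results of these data known. Y-linked genes are not named.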

Additional observations from a re-analysis of the deposited data

Results flagged for a closer look

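A gap of 1 array from the others was looked for in the vehicle group for the named genes, by Dixon's ratio against its 95% value of 0.71 for 5 arrays; about 1 in 20 groups is picked out by chance, and 2 of 41 were here. IL31RA stood at 1.228 array medians on vehicle replicate 1 and at 2.02 to 2.39 on the other 4 vehicle arrays, below all of its RA arrays either way. PTGES stood at 0.07 array medians on vehicle replicate 5 and at 0.634 to 1.25 on the others, and its difference passed with each of the 8 arrays left out in turn, at 2.74 on the log2 scale without vehicle replicate 5 against 3.47 with it.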

How the results depend on the processing

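The counts of 280 rises and 379 falls depended on the scale and on which arrays were used. Higher genes numbered 718 on the recovered GCOS signal scale and 777 after quantile normalization, and lower genes 714 and 760. Falls also moved to 184 when only the 8 arrays were fitted, to 583 with all 8 vehicle arrays as reference, to 185 without the intensity trend and to 204 with the mean of a gene's probe sets. Leaving out 1 array gave 177 to 341 rises and 168 to 1458 falls, and leaving out the 2 vehicle arrays of lowest ACTB ratio, an alternative added after seeing the data, gave 210 and 112. Same-numbered arrays of the 2 groups correlated at 0.024 to 0.034 in their deviations and were not treated as pairs; with a replicate block 243 genes rose and 426 fell. The position of the arrays in the record numbers as a block gave 266 and 430, and no filter and a pseudocount stayed within 1.5 times. The comparison of vehicle at 40 h and 16 h gave 1 gene with the pseudocount in place of 0. With the mean of a gene's probe sets LINC02806 turned to 0.127 and FUCA1 to -0.555. Among the 104 tested genes that the naming rule picked, no other gene that passed turned in direction under these settings. TNF (log2 -0.995) and CD14 (-0.19), which did not pass, changed sign in a fit that left out 1 array, reaching 0.256 and 0.272. Of the 104, 103 kept their side of the threshold on the GCOS scale, 103 after quantile normalization and 77 with the mean of probe sets. Causes were not tested. Dim genes, 3 RA wells and 1 line limit these results.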

Other observations

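Among genes of none of the lists, those with the smallest adjusted p by limma included metabolic, growth factor and phagocyte genes, named here after their values were seen. GALM, the mutarotase that feeds galactose into its pathway, stood at 4.13, 6.37, 5.24, 5.75 and 4.19 array medians in vehicle and 31.9, 37.4 and 58.4 in RA, an 8.12-fold rise (adjusted p = 1e-11, limma). SLC2A5, the fructose transporter GLUT5, went from 27.2, 39, 29.9, 33.1 and 28.2 to 176, 183 and 179.6, a 5.75-fold rise (adjusted p = 3.31e-11, limma), with the groups far apart in both genes. HBEGF, a ligand of the epidermal growth factor receptor, rose 7.03-fold, NDRG1, a stress and differentiation gene, 6.15-fold, and POR, which passes electrons to cytochrome P450 enzymes, 3.96-fold. FMNL2, a formin that extends actin filaments, rose 8.41-fold from 1.68, 3.63, 1.96, 2.49 and 1.1 to 16.4, 17.6 and 16.8, and LRG1, a leucine-rich glycoprotein of the acute phase, 4.97-fold. SIGLEC11 and SIGLEC16, paired inhibitory and activating lectins of near-identical ectodomains that the probe sets may not separate, rose 5.26-fold and 6.21-fold.

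Falls outside the lists included genes for receptors and membrane-linked proteins. S1PR3, a sphingosine 1-phosphate receptor, was at 6.39, 9.1, 6.28, 8.58 and 5.3 in vehicle and 2.22, 1.35 and 2.12 in RA, a 3.77-fold fall (adjusted p = 6.83e-06, limma). DEPTOR, an inhibitor inside the mTOR complexes, fell 2.49-fold, AHNAK, a giant scaffold protein that binds the annexin A2 and S100A10 complex, 2.43-fold, and LGALS3, galectin 3, 2.15-fold. SLC1A3, a glutamate transporter, fell 3.82-fold, RGS18, a regulator of G protein signalling in blood cells, 2.31-fold, and MARCKS, a substrate of protein kinase C that holds actin to the membrane, 2.24-fold. All 3 RA arrays lay below all 5 vehicle arrays in each of these 7 genes. At 40 h on the separate run of arrays, AHNAK differed by -1.41 on the log2 scale (adjusted p = 0.00169, limma) and LGALS3 by -1.30 (adjusted p = 0.000886, limma), whereas MARCKS differed by 0.06 (adjusted p = 0.981, limma).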
